A study of Mus musculus with 12 samples.

Results

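Nuclear receptors are transcription factors whose activity is set, in many members, by a small lipid-soluble ligand such as a hormone, a fatty acid, a bile acid or a drug. They bind DNA through a pair of zinc fingers, and many of them act as a heterodimer with a retinoid X receptor (RXR), so that the RXR genes are shared partners of the thyroid hormone, retinoic acid, peroxisome proliferator, oxysterol, bile acid and xenobiotic receptors. In liver they are known for the control of lipid, bile acid and drug metabolism. The genes examined were 39 nuclear receptor genes chosen by name, out of 36228 gene rows of the count table.

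Liver RNA was sequenced from IDH2 KO mice, which carry a germ-line *Idh2*-/- deletion in every cell, and from their littermate wild-type (WT) mice. All 12 mice were of the C57BL/6N strain and aged 8 to 10 weeks. There were 4 female and 3 male WT mice and 3 female and 2 male IDH2 KO mice, and each mouse gave 1 library of single-end 50-base reads. The libraries held 15323300 to 25019649 counted reads, of which transcripts of the mitochondrial genome took 22.8% to 50.4%. *Idh2* had 967 to 2363 reads in each WT library and 1 to 7 in each IDH2 KO library. The libraries are of whole liver, so fewer cells of a type and less RNA per cell cannot be told apart. The summed level of 10 hepatocyte markers was 124256 to 224700 CPM in WT and 95082 to 231571 CPM in IDH2 KO libraries (counts relative to library sizes scaled by the TMM method of edgeR), and *Cps1* alone of them had no read. The summed level of 10 Kupffer cell markers, of which *C1qc* alone had no read, was 148 to 501 CPM in WT and 215 to 763 CPM in IDH2 KO libraries. That of 7 erythroid markers, none of them without reads, was 16.5 to 140 CPM in WT and 33.5 to 305 CPM in IDH2 KO libraries. Of the 5 tested ones 4 were higher at an unadjusted p under 0.05 (edgeR), against 3.48% of all genes. The remaining one, *Alas2*, had a mean of 3.61 CPM in WT and 1.93 CPM in IDH2 KO mice. Without the library IDH2 KO female 3, *Hbb-bs* alone of the erythroid markers was under 0.05 (unadjusted p = 0.0368, edgeR). *Hba-a1*, *Hba-a2* and *Hbb-bt* then had unadjusted p of 0.102, 0.105 and 0.228 (edgeR). Of 8 tested Kupffer cell markers 7 had a log2 fold change above 0, with a median of 0.46, and the part of these cell types in the results below was not tested.

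A pair of libraries stood apart. IDH2 KO female 3 had a median correlation of 0.829 with the other 11 libraries, where every other library had at least 0.924, and 8531 genes had reads in it, where the others had 10482 to 12873. WT male 1 held transcripts of intestinal genes, which are described with the vitamin D receptor. Values that rest on either library are given with and without it.

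Of the 39 receptor genes, 14 had enough reads for a test across all genes, 14 had reads but fell under the filter on low counts, and 11 had no reads at all. The filter was that of edgeR and passed 7618 of the 36228 genes. All 39 genes together held 20110 reads, or 83.3 RPM (counted reads scaled to a common total). *Nr1i2* alone held 41.5% of these, and the 4 genes with the most reads held 77.3%. A read was present in every library for 11 genes, and a total of at least 300 reads was reached by 9. Most comparisons below rest on few reads.

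**Figure D1:**
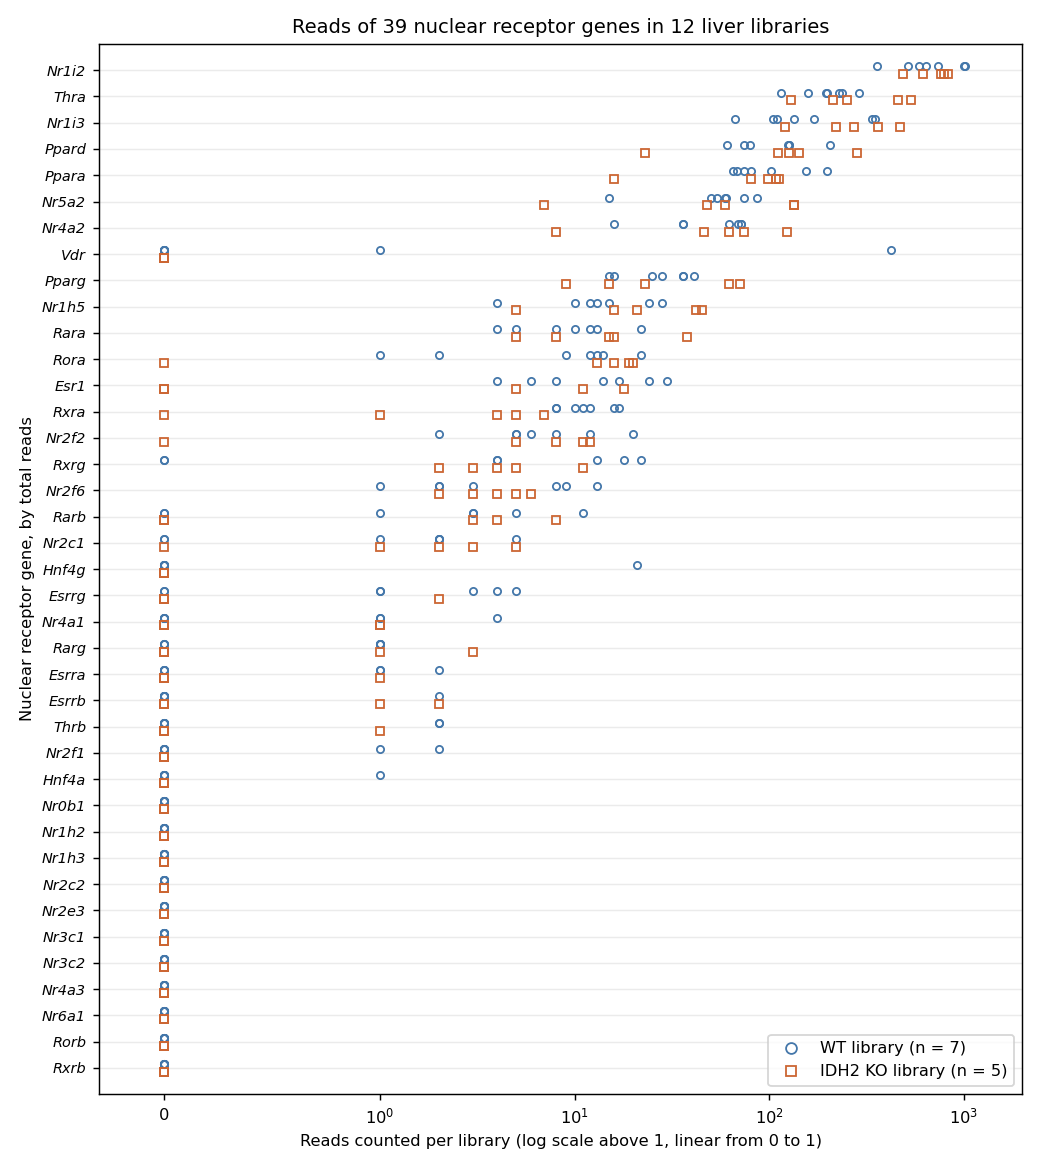
Reads of each of the 39 nuclear receptor genes (rows, ordered by total reads) in each of 12 liver libraries, with the number of reads on a horizontal axis that is logarithmic above 1 and linear between 0 and 1. Circles are the 7 WT and squares the 5 IDH2 KO libraries. *Nr1i2* is the highest with 357 to 1015 reads a library, 11 genes lie at 0 in every library, and *Vdr* lies at 424 reads in 1 WT library and at 0 or 1 in all others.

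The 11 genes without a read were *Rxrb*, *Nr1h2*, *Nr1h3*, *Rorb*, *Nr2c2*, *Nr2e3*, *Nr3c1*, *Nr3c2*, *Nr4a3*, *Nr6a1* and *Nr0b1*. They were 28.2% of the receptor genes, against 52.3% of all rows of the table. A count of 0 over all libraries allows up to 3 reads, or 0.0124 RPM, and this limit covers counting error only. Several of these genes encode receptors with established roles in liver, among them *Nr1h3* and *Nr1h2*, the oxysterol receptors LXRα and LXRβ, and *Nr3c1*, the glucocorticoid receptor. *Hnf4a*, the hepatocyte nuclear factor that defines hepatocyte identity, had 1 read in all 12 libraries, in WT female 2. Genes it is known to control differed widely in their counts. The apolipoprotein gene *Apoa2* had a mean of 7237 ± 2666 CPM (SD, n = 7) over WT mice. Of 19 genes listed as HNF4α targets, *Mttp* and *Pklr* had no read, and *Cyp7a1* had 11. How reads matching several transcripts were treated is not given in the sources used here, and its part in these counts was not tested.

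The receptors differed in how much of their sequence belongs to only 1 of the gene's own annotated transcripts. Each receptor transcript of the GENCODE M21 basic set was divided into all its words of 50 bases, the read length. The words found in exactly 1 transcript of the same gene were counted, a measure chosen after the counts had been seen. Words shared with other genes were not taken out. *Hnf4a* had 6 such words of 4313, *Nr1h2* had 54 of 2101 and *Nr3c1* had 260 of 6538. The 14 tested receptors had at least 453, with a median of 1572, and the 11 without reads had a median of 787. *Nr1i2*, with the most reads, has 1 basic transcript, so all of its 2504 words were of this kind. The measure did not separate the groups of genes: *Nr2c2*, *Nr4a3*, *Nr2e3* and *Nr0b1* had 6209, 5671, 1988 and 1759 such words and no read. Of the 8063 words of *Nr2c2*, 4247 were also found in another gene on either strand. For *Nr4a3*, *Nr2e3* and *Nr0b1* these were 9 of 5671, 44 of 1988 and 0 of 1759.

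**Figure D2:**
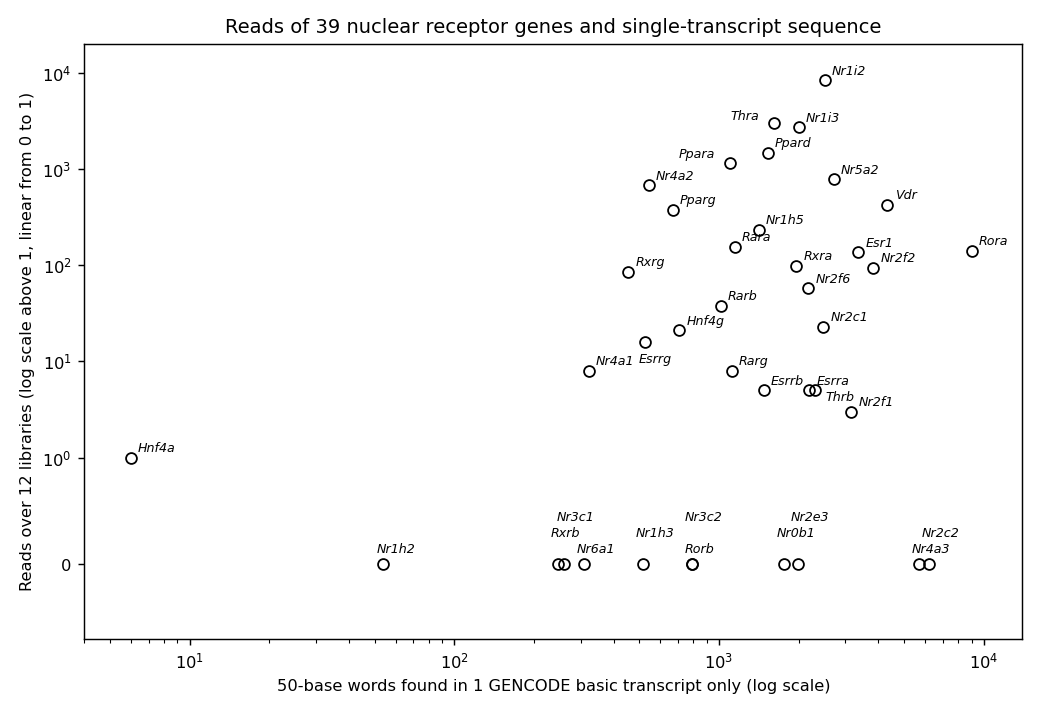
Total reads of each of the 39 receptor genes over 12 libraries (vertical axis, logarithmic above 1 and linear between 0 and 1). The horizontal axis (logarithmic) is the number of 50-base words found in only 1 of the gene's own GENCODE basic transcripts. Each circle is 1 gene. *Hnf4a* and *Nr1h2* lie at the far left with 6 and 54 words and 1 and 0 reads, while *Nr4a3* and *Nr2c2* lie far right at 0 reads.

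Nuclear receptors are also known to be similar to each other in sequence, above all in the zinc fingers, and a helix of the first one contacts the DNA. The coding pattern TGNGANGGNTGNAANGGNTTNTT of this helix (N is any base, searched on the transcript strand only) was found in 27 of the 39 genes and in 31 of 21877 protein-coding genes (0.142%). It was not found in the steroid, estrogen-related and COUP type receptors nor in *Nr5a2*, *Nr2e3* and *Nr0b1*. The following stretches, taken from the GENCODE M21 transcripts and written 5′ to 3′ on the coding strand, show the pattern in capitals with 12 bases on either side. They are shown because most of the receptors hold the pattern, and each stretch is shorter than a 50-base read. Other parts of the receptors were not compared. Of the 27, 11 are given, among them the partners RXRα and RXRβ, both thyroid hormone receptors and the xenobiotic receptors.
Rxra: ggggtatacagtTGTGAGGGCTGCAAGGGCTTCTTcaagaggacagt
Rxrb: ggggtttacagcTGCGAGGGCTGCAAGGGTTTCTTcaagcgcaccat
Rara: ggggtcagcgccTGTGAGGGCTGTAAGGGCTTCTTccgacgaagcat
Thra: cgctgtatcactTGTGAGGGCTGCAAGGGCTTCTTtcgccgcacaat
Thrb: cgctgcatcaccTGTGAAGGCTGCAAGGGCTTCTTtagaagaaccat
Ppara: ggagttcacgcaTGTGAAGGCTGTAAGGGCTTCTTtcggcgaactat
Pparg: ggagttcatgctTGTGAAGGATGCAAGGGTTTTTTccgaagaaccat
Nr1i2: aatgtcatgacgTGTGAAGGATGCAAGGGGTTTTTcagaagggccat
Nr1i3: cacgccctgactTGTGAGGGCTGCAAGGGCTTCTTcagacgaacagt
Vdr: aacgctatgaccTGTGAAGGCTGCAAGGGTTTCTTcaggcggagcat
Hnf4g: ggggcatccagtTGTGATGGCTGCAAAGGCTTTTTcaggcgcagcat
Within the 23 bases in capitals *Rxra*, *Thra* and *Nr1i3* differed at 0 bases, *Rxra* and *Rxrb* at 2, *Thra* and *Thrb* at 1, and *Ppara* and *Pparg* at 4. The search fixed every base of the pattern except those written N, so only these could differ, and the counts do not measure similarity beyond them. Over whole transcripts *Rxra*, *Rxrb*, *Ppara*, *Pparg*, *Nr1i2*, *Vdr* and *Hnf4g* shared 0 words of 50 bases with another gene. *Nr1i3* shared 1705 of its 3366 words, *Thra* 220 of 3108, *Rara* 21 of 4272 and *Thrb* 17 of 6722.

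None of the 14 tested receptor genes passed the threshold between IDH2 KO and WT livers. The test was edgeR's quasi-likelihood test over all 12 libraries with sex in the model, and an adjusted p under 0.05 by Benjamini-Hochberg over all 7618 genes was the threshold. Over all genes 29 of 7618 (0.381%) passed. At an unadjusted p under 0.05 there were 2 of the 14 receptors (14.3%), *Rxra* lower and *Nr1i3* higher in IDH2 KO mice, against 512 of all genes (6.72%), with 3.24% of all genes lower and 3.48% higher. DESeq2 called 0 of the 14 as well, with 3 at an unadjusted p under 0.05, against 670 of all 7618 genes in DESeq2. The fold change was above 0 for 10 of the 14, with a median log2 fold change of 0.26 against −0.0045 over all genes. The receptors were counted less deeply than most tested genes, with a median of 43.9 reads a library against 75.8, and the median standard error of their log2 fold changes was 0.51 against 0.38. In no receptor did all IDH2 KO libraries lie apart from all WT libraries, which 51 of 7618 genes (0.669%) did.

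**Figure D3:**
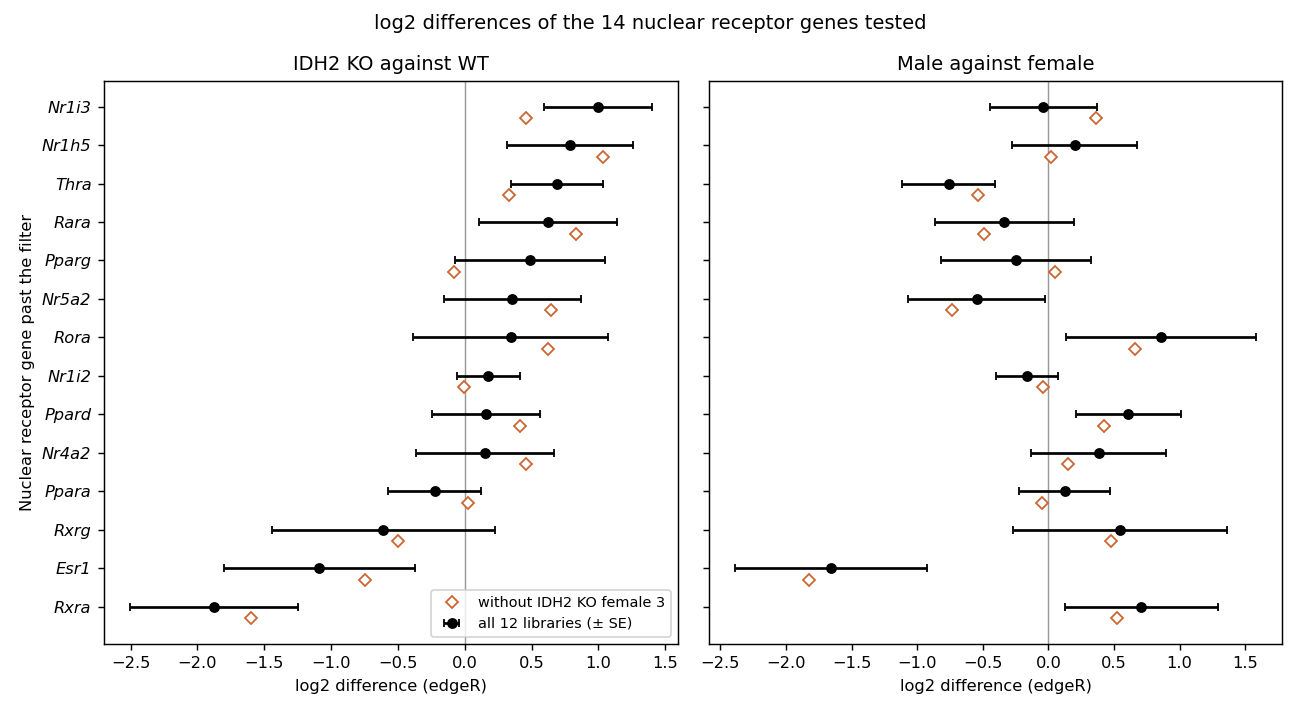
log2 differences of the 14 tested receptor genes from edgeR, for IDH2 KO against WT (left) and for male against female mice (right). Black points with bars are the estimates ± SE over all 12 libraries, and open diamonds are the estimates without IDH2 KO female 3. *Rxra* is the lowest at −1.88 and *Nr1i3* the highest at 1.00 in the left panel, where *Nr1i3* drops to 0.46 without that library.

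Among the shared partners, *Rxra* (chr2:27676440-27762957 of GRCm38, plus strand) encodes RXRα, the main RXR of liver. Its levels in the female WT libraries 1 to 4 were 0.874, 0.387, 0.591 and 0.371 CPM, and in the male WT libraries 1 to 3 they were 0.947, 0.322 and 0.667 CPM. In IDH2 KO females 1 to 3 they were 0.167, 0.0569 and 0 CPM, and in IDH2 KO males 1 and 2 they were 0.223 and 0.362 CPM. The female groups did not overlap, whereas IDH2 KO male 2 lay above WT male 2, so that 4 of 5 IDH2 KO libraries were below every WT library of their sex. These levels rest on 8 to 17 reads per WT library and on 0 to 7 per IDH2 KO library. The mean was 0.594 ± 0.250 CPM (SD, n = 7) over WT mice and 0.162 ± 0.143 CPM (SD, n = 5) over IDH2 KO mice. The log2 fold change was −1.88 (SE 0.63), with an unadjusted p of 0.00911 and an adjusted p of 0.488 from edgeR. An exact permutation test over the 350 ways to assign genotypes within sex gave a two-sided p of 0.0114, unadjusted. Without IDH2 KO female 3 the log2 fold change was −1.60 (adjusted p = 0.415, edgeR), and without WT male 1, the highest library, it was −1.81 (adjusted p = 0.596, edgeR). Summed over libraries, 17 IDH2 KO reads against 82 WT reads gave a ratio of 0.310 in RPM, with an exact 95% interval of 0.172 to 0.527 that covers counting error only.

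The other partners were hardly counted. *Rxrg*, which encodes RXRγ, known mainly from muscle and brain, was at 0 to 0.773 CPM in WT libraries with a median of 0.267 CPM and at 0.148 to 0.569 CPM in IDH2 KO libraries with a median of 0.179 CPM. The groups overlapped, its log2 fold change was −0.61 (SE 0.84), and a pair of WT female libraries held none of its 86 reads. *Rxrb*, which encodes RXRβ, had no read, so no level of the 3 partners together could be compared.

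The thyroid hormone receptor gene *Thra* (chr11:98740638-98769006, plus strand) encodes TRα, and *Thrb* encodes TRβ, which is known as the main thyroid hormone receptor of hepatocytes. *Thra* was at 11.7, 10.2, 9.70 and 10.9 CPM in WT females 1 to 4 and at 11.5, 4.63 and 10.5 CPM in WT males 1 to 3. It was at 19.1, 14.2 and 39.4 CPM in IDH2 KO females 1 to 3 and at 5.76 and 11.0 CPM in IDH2 KO males 1 and 2. All 3 IDH2 KO females were above every WT female, and the males overlapped. The log2 fold change over both sexes was 0.69 (SE 0.34), with an unadjusted p of 0.0622 and an adjusted p of 0.756 from edgeR. Without IDH2 KO female 3 it was 0.33 (adjusted p = 0.697, edgeR), and without WT male 1 it was 0.81 (unadjusted p = 0.0310, adjusted p = 0.621, edgeR). *Thrb* had 5 reads, of which IDH2 KO libraries held 1, and could not be compared.

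The last exon of *Thra* is known to overlap *Nr1d1*, which encodes the clock repressor REV-ERBα, on the opposite strand. Of the exon bases of *Thra*, 5.70% overlapped exons of *Nr1d1*, and *Nr1d1* had a mean of 127 ± 27.1 CPM (SD, n = 7) over WT mice and of 165 ± 78.8 CPM (SD, n = 5) over IDH2 KO mice. The labels name a TruSeq RNA kit without saying whether it marks strand, so reads of the shared stretch cannot be told apart. *Nr1d1* was at 77.8 to 156 CPM in WT libraries, at 234, 236 and 136 CPM in IDH2 KO females 1 to 3 and at 45.9 and 172 CPM in IDH2 KO males 1 and 2. IDH2 KO females 1 and 2 were thus above every WT library in *Nr1d1* and above every WT female in *Thra*, while IDH2 KO female 3, the highest in *Thra*, was within the WT range of *Nr1d1*. The part of *Nr1d1* reads in the *Thra* counts was not tested.

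*Rara* encodes the retinoic acid receptor RARα. Its levels were 0.411, 0.422, 0.492 and 1.02 CPM in WT females 1 to 4 and 0.769, 0.161 and 0.333 CPM in WT males 1 to 3. In IDH2 KO females 1 to 3 they were 1.58, 0.455 and 0.370 CPM, and in IDH2 KO males 1 and 2 they were 0.715 and 0.777 CPM. The groups overlapped, 1 library (IDH2 KO female 1) held 38 of the 156 reads, and the log2 fold change was 0.62 (SE 0.52, adjusted p = 0.846, edgeR). Without IDH2 KO female 1 it was 0.18. Of the other retinoic acid receptor genes, *Rarb* had 38 reads and *Rarg* had 8. *Rarb* was at 0 to 0.387 CPM in WT and 0 to 0.455 CPM in IDH2 KO libraries, and 34.1% of its exon bases overlap *Top2b*, the gene of a DNA topoisomerase, on the opposite strand.

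The peroxisome proliferator-activated receptors were all counted, and none passed the threshold. *Ppara* encodes PPARα, the receptor for fatty acids that drives their oxidation in fasted liver. It was at 4.16, 6.92, 3.64 and 4.73 CPM in WT females 1 to 4 and at 3.85, 6.24 and 4.53 CPM in WT males 1 to 3. It was at 4.12, 6.15 and 1.18 CPM in IDH2 KO females 1 to 3 and at 3.62 and 5.80 CPM in IDH2 KO males 1 and 2. IDH2 KO female 3 was the lowest of the 12 libraries, and the others overlapped closely. Its log2 fold change was −0.22 (SE 0.35), and 0.025 without IDH2 KO female 3.

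*Ppard* encodes PPARδ, a receptor for fatty acids found in most tissues. It was at 6.53, 4.46, 6.15 and 3.71 CPM in WT females 1 to 4 and at 12.2, 2.98 and 4.07 CPM in WT males 1 to 3. It was at 5.95, 6.32 and 1.70 CPM in IDH2 KO females 1 to 3 and at 12.6 and 6.52 CPM in IDH2 KO males 1 and 2. The groups overlapped, with a high library in the males of each genotype, and the log2 fold change was 0.16 (SE 0.40). It was 0.43 without WT male 1 and 0.42 without IDH2 KO female 3.

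*Pparg*, which encodes PPARγ, the receptor that drives fat storage in adipocytes, was at 0.771, 1.44, 0.788 and 1.30 CPM in WT females 1 to 4 and at 2.13, 1.45 and 1.67 CPM in WT males 1 to 3. It was at 2.58, 0.854 and 5.25 CPM in IDH2 KO females 1 to 3 and at 0.402 and 1.19 CPM in IDH2 KO males 1 and 2. Both IDH2 KO males were below every WT male, and 2 of 3 IDH2 KO females were above every WT female. The log2 fold change was 1.41 (SE 0.57) in females and −1.14 (SE 0.73) in males, and the difference of these had an unadjusted p of 0.0165 and an adjusted p of 1.00 (edgeR). Over all genes the difference between the sexes was called for 0 of 7618 and reached an unadjusted p under 0.05 for 220 (2.89%). DESeq2 was not run on this difference. The fold change in females was 0.69 without IDH2 KO female 3, and the difference was −1.81 (unadjusted p = 0.0445, edgeR).

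**Figure D4:**
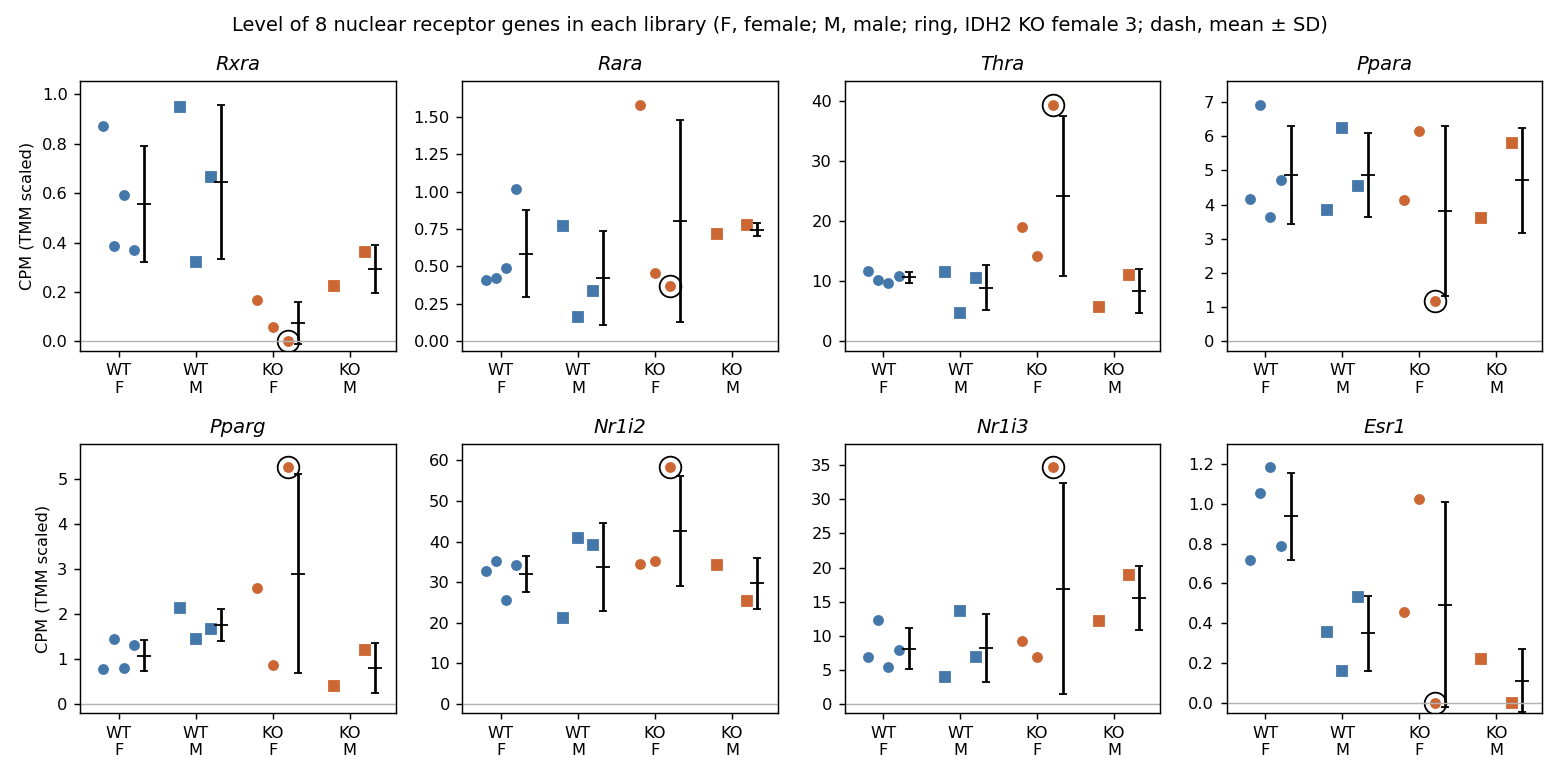
Level of 8 receptor genes in CPM (vertical axes, different for each gene) in WT females (n = 4), WT males (n = 3), IDH2 KO females (n = 3) and IDH2 KO males (n = 2). Each point is 1 library, the dash and bar are the mean ± SD of the group, and the ring marks IDH2 KO female 3. That library is the lowest for *Rxra*, *Ppara* and *Esr1* (0, 1.18 and 0 CPM) and the highest for *Thra*, *Pparg*, *Nr1i2* and *Nr1i3* (39.4, 5.25, 58.3 and 34.7 CPM).

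Of the xenobiotic receptors, *Nr1i2* had the most reads of all 39 genes and *Nr1i3* the third most, after *Thra*. *Nr1i2* (chr16:38248323-38294824, minus strand) encodes PXR, which senses drugs and bile acids and induces *Cyp3a* genes. Per kilobase of exon it was the highest of the 39 genes, at 12.8 ± 2.78 (SD, n = 7) CPM per kilobase in WT, against 2.14 ± 0.526 for *Thra*, 1.84 ± 0.806 for *Nr1i3* and 1.27 ± 0.324 for *Ppara*. The range of 1 SD around the mean of *Nr1i2* lay above those of the others, whereas those of *Thra* and *Nr1i3*, and of *Nr1i3* and *Ppara*, overlapped.

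*Nr1i2* was at 32.7, 35.2, 25.5 and 34.3 CPM in WT females 1 to 4 and at 21.1, 40.9 and 39.1 CPM in WT males 1 to 3. It was at 34.5, 35.1 and 58.3 CPM in IDH2 KO females 1 to 3 and at 34.2 and 25.3 CPM in IDH2 KO males 1 and 2. Apart from IDH2 KO female 3 the libraries covered the same range. Its log2 fold change was 0.18 (SE 0.24), the smallest standard error of the 14, and it was −0.0060 without IDH2 KO female 3.

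*Nr1i3* (chr1:171213970-171220701, plus strand) encodes CAR, the constitutive androstane receptor, which induces *Cyp2b* genes. It was at 6.89, 12.3, 5.37 and 7.88 CPM in WT females 1 to 4 and at 3.97, 13.7 and 6.93 CPM in WT males 1 to 3. It was at 9.20, 6.89 and 34.7 CPM in IDH2 KO females 1 to 3 and at 12.2 and 18.8 CPM in IDH2 KO males 1 and 2. The groups overlapped, and only IDH2 KO female 3 and IDH2 KO male 2 exceeded every WT library of either sex. The log2 fold change was 1.00 (SE 0.40), with an unadjusted p of 0.0254 and an adjusted p of 0.654 from edgeR. The permutation test within sex gave an exact two-sided p of 0.100. Without IDH2 KO female 3 the log2 fold change was 0.46 (unadjusted p = 0.176, edgeR), and the mean of IDH2 KO mice fell from 16.4 ± 11.2 (SD, n = 5) to 11.8 ± 5.19 (SD, n = 4) CPM, against 8.14 ± 3.56 (SD, n = 7) CPM in WT. *Tomm40l*, which encodes a protein related to a mitochondrial import channel, lies on the opposite strand and covers 74.9% of the exon bases of *Nr1i3*, and none of its reads were counted. Reads from the shared stretch could not be assigned to either gene without strand.

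*Vdr*, the gene of the vitamin D receptor (chr15:97854425-97910630, minus strand), held 425 reads, and 424 of them came from WT male 1. The only other read was in WT female 1. All 21 reads of *Hnf4g*, which encodes a relative of HNF4α known from intestine and kidney, came from WT male 1 as well. The level of *Vdr* there was 25.1 CPM, and no other of the 39 receptor genes had more reads in that library, *Nr1i2* having 357. In the 5 IDH2 KO libraries a count of 0 allows up to 0.0310 RPM. The 7 WT libraries together held 2.94 RPM, but without WT male 1 they held 1 read, and no difference between the genotypes was then detectable at this depth.

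WT male 1 also held reads of intestinal genes. A list of 16 genes known from intestinal epithelium, written after these counts had been seen, summed to 5494 reads (325 CPM) there and to 1 to 40 reads (0.0464 to 1.61 CPM) in each of the other 11 libraries. All 12 genes of the list with reads were highest in WT male 1, and *Lypd8*, *Sis*, *Mep1a* and *Cdh17* had none. In WT male 1 there were 59 genes with at least 20 reads and at most 2 in all other libraries together, against 0 in 10 libraries and 1 in IDH2 KO female 3. The 8 cholangiocyte markers (no read for *Spp1* and *Cldn7*), some of which intestinal epithelium also expresses, summed to 65.8 CPM in WT male 1 and to 1.23 to 14.7 CPM elsewhere. *Ppard* at 12.2 CPM was the highest of the WT libraries there, and the part of these transcripts in it was not tested.

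**Figure D5:**
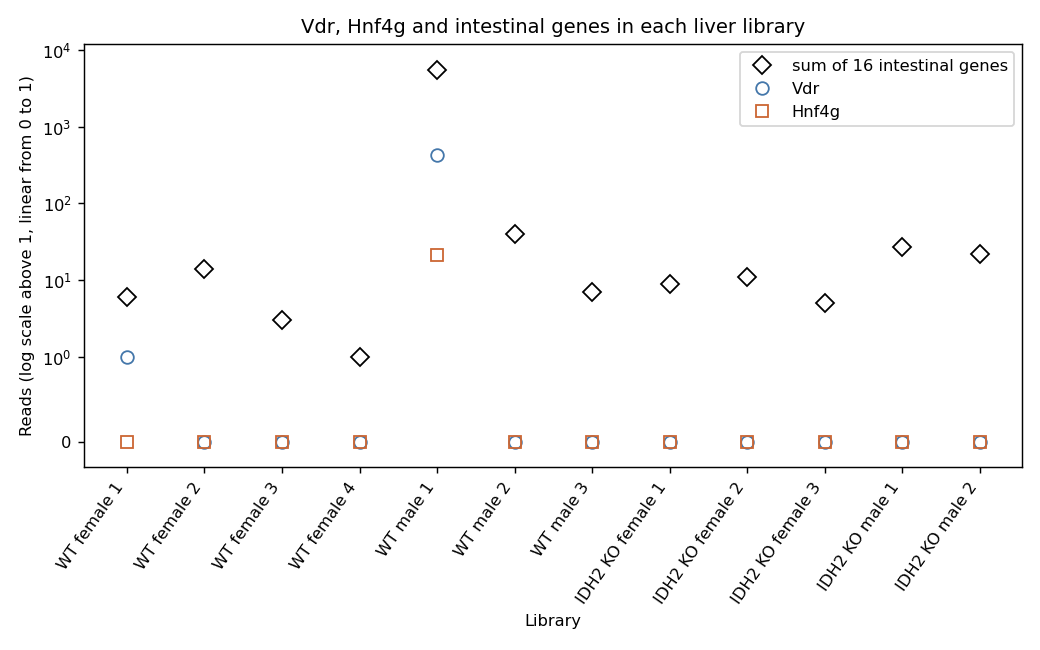
Reads of *Vdr* (circles), of *Hnf4g* (squares) and of 16 intestinal genes summed (diamonds) in each of the 12 libraries, on a vertical axis that is logarithmic above 1 and linear between 0 and 1. WT male 1 holds 424, 21 and 5494 reads, and no other library holds more than 1, 0 and 40.

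Of the remaining lipid sensors, *Nr1h5* encodes FXRβ, a lanosterol receptor in mice, and it had 235 reads. It was at 0.267 to 1.13 CPM in WT libraries with a median of 0.617 CPM, and at 1.75, 0.910 and 0.370 CPM in IDH2 KO females and 2.01 and 1.09 CPM in IDH2 KO males. The log2 fold change was 0.79 (SE 0.47, adjusted p = 0.798, edgeR), and it was above 0 in all 24 alternative analyses. Without IDH2 KO female 3 it was 1.03 (unadjusted p = 0.0274, adjusted p = 0.438, edgeR). *Nr5a2*, which encodes LRH-1, a regulator of bile acid synthesis, was at 0.604 to 4.03 CPM in WT and at 0.518 to 7.62 CPM in IDH2 KO libraries, and *Rora*, which encodes the sterol-binding orphan receptor RORα, at 0.0514 to 1.47 CPM and 0 to 0.984 CPM. The genotypes overlapped in all 3 genes. The log2 fold change of *Nr5a2* was 0.36 (SE 0.51) and 0.64 without IDH2 KO female 3, and that of *Rora* was 0.34 (SE 0.73) and 0.63 without that library.

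Within the NR4A family, whose members are induced without a ligand as early response genes, only *Nr4a2* was counted well. It was at 3.55, 1.27, 3.54 and 2.87 CPM in WT females 1 to 4 and at 2.13, 0.644 and 4.80 CPM in WT males 1 to 3. It was at 3.08, 2.62 and 0.592 CPM in IDH2 KO females 1 to 3 and at 2.77 and 6.42 CPM in IDH2 KO males 1 and 2. The groups overlapped and the log2 fold change was 0.15 (SE 0.52), or 0.46 without IDH2 KO female 3 and 0.037 without WT male 1. *Nr4a1* had 8 reads and *Nr4a3* none. Among 19 immediate early genes of other families, 13 were tested and 5 rose in IDH2 KO mice (*Junb*, *Egr1*, *Ier2*, *Dusp1* and *Zfp36*, against 0.171% of all genes called higher), with 12 of 13 above 0 and a median log2 fold change of 1.99. *Egr1*, a zinc finger factor induced by growth signals, had a log2 fold change of 4.20 (SE 0.67, adjusted p = 0.00921, edgeR), and *Junb*, an AP-1 subunit, one of 2.25 (SE 0.26, adjusted p = 0.000438, edgeR). *Junb*, *Egr1* and *Zfp36* were past the threshold also without IDH2 KO female 3. Without WT male 1 *Junb*, *Egr1* and *Ier2* did, and *Fos* passed as well. *Nr4a2* was not among the genes called in any of these fits.

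Among the steroid and estrogen-related receptors only *Esr1*, which encodes the estrogen receptor α, was tested, while the related *Esrra*, *Esrrb* and *Esrrg* had 5, 5 and 16 reads. *Esr1* was at 0.720, 1.05, 1.18 and 0.788 CPM in WT females 1 to 4 and at 0.355, 0.161 and 0.533 CPM in WT males 1 to 3. It was at 0.458, 1.02 and 0 CPM in IDH2 KO females 1 to 3 and at 0.223 and 0 CPM in IDH2 KO males 1 and 2. In WT mice all females were above all males, and in IDH2 KO mice the sexes overlapped through IDH2 KO female 3. The log2 difference of males from females was −1.66 (SE 0.73, unadjusted p = 0.0387, adjusted p = 0.371, edgeR), and without IDH2 KO female 3 it was −1.82 (adjusted p = 0.0971, edgeR). Between the genotypes the log2 fold change was −1.09 (SE 0.71, adjusted p = 0.808, edgeR), and the permutation test within sex gave an exact two-sided p of 0.0429, or 0.0514 with 1 CPM added in place of 0.5 before the logarithm.

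Between the sexes none of the 14 receptors passed the threshold, where 151 of 7618 genes (1.98%) did. At an unadjusted p under 0.05 there were 2 of 14 (14.3%), *Esr1* and *Thra*, both lower in males, against 929 of all genes (12.2%), with 6.77% of all genes lower in males. *Thra* had a log2 difference of −0.76 (SE 0.35, adjusted p = 0.404, edgeR). DESeq2 called 0 of the 14 here too. Of the 151 genes 63 were higher and 88 lower in males, whereas without scaling factors, which moved the median difference of all genes to 0.28, the calls were 72 and 46. The libraries of the sexes overlapped in all 14 receptors, and they did not overlap in 208 of 7618 genes (2.73%).

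Taken by sex, 0 of 14 receptors passed the threshold between genotypes in females, where 14 of 7618 genes (0.184%) did, and 0 of 14 in males, where 8 (0.105%) did. At an unadjusted p under 0.05 there were 3 receptors in females (*Rxra* at −2.63, *Thra* at 1.19 and *Pparg* at 1.41 on the log2 scale) against 5.28% of all genes, and 0 in males against 3.98%. Without IDH2 KO female 3, *Rxra* in females was at −2.18 (unadjusted p = 0.0293, edgeR) and *Thra* at 0.66 (unadjusted p = 0.0673, edgeR). *Pparg* was then at 0.69 (unadjusted p = 0.226, edgeR) and *Nr5a2* at 1.09 (unadjusted p = 0.0441, edgeR). Without WT male 1, *Ppard* in males was at 1.44 (unadjusted p = 0.0342, edgeR). The female genotypes did not overlap in 2 receptors, *Rxra* and *Thra* (6.48% of all genes), and the male genotypes in 1, *Pparg* (24.1%).

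IDH2 KO female 3 was the lowest of the 12 libraries for 7 of the 14 receptors (*Rxra*, *Ppara*, *Ppard*, *Rora*, *Esr1*, *Nr4a2* and *Nr5a2*) and the highest for 4 (*Thra*, *Pparg*, *Nr1i2* and *Nr1i3*), with *Esr1* at 0 in IDH2 KO male 2 as well. No other library was the lowest or the highest for more than 2. The same library had the highest summed Kupffer cell markers (763 CPM), and 816 of the 7618 tested genes had no read in it, against 15 to 120 in the others. Without it, the signs of *Ppara*, *Pparg* and *Nr1i2* turned, and the receptors kept 0 calls.

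The other receptors with few reads were orphan receptors of the COUP and testicular type. *Nr2f2* had 94 reads, *Nr2f6* had 58, *Nr2c1* had 23 and *Nr2f1* had 3. *Nr2f2*, which encodes COUP-TFII, was at 0.0703 to 0.985 CPM in WT and 0 to 0.569 CPM in IDH2 KO libraries, and the ratio of IDH2 KO to WT RPM was 0.928 with an exact 95% interval of 0.595 to 1.43. For *Nr2f6*, of whose exon bases 54.4% overlap *Ocel1* on the opposite strand, the ratio was 0.787 (0.434 to 1.39), and for *Rarb* it was 0.975 (0.473 to 1.95). These intervals cover counting error only and all hold 1. For *Esrrg* the 2 IDH2 KO reads against 14 WT reads gave 0.214 (0.0236 to 0.930), and the interval held 1 without IDH2 KO female 3 (0.0283 to 1.12) or without WT male 1 (0.0308 to 1.42).

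Other nuclear receptor genes were read from a companion list of 10. Of these 6 were tested and 0 passed. *Nr0b2*, which encodes the corepressor SHP, was at 26.6 CPM in WT and 36.2 CPM in IDH2 KO mice (log2 fold change 0.50, SE 0.28). *Nr1h4*, the gene of FXR, the bile acid receptor of liver, had 13 reads.

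The coregulators were counted no better than the receptors. Of 15 coactivator genes 6 had no read, and *Carm1*, an arginine methyltransferase, alone was tested (log2 fold change −0.050). Of 10 corepressor genes 5 had no read and 3 were tested with no call, and the histone deacetylase genes *Hdac1* and *Hdac3* had log2 fold changes of −0.21 and 0.28.

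Genes that these receptors are known to control showed no call in most lists. Of 6 tested thyroid hormone receptor targets 0 passed, 5 were below 0, and *Fasn*, the fatty acid synthase gene, and *Thrsp*, a lipogenic factor, were lower at an unadjusted p under 0.05, as 3.24% of all genes were (log2 fold changes −1.07 and −1.08, adjusted p of 0.391 and 0.472, edgeR). Their median was −0.37. Of 17 PPARα targets 0 passed and 13 were above 0, with a median of 0.19. *Pdk4*, which encodes a kinase that shuts off pyruvate oxidation, had a log2 fold change of 1.48 (SE 0.48, adjusted p = 0.473, edgeR). It passed without IDH2 KO female 3 (1.77, adjusted p = 0.0169, edgeR) but not without WT male 1 (1.75, adjusted p = 0.361, edgeR).

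Of 15 tested targets of PXR and CAR 0 passed, and 11 were below 0, with a median of −0.29. *Sult2a1*, a sulfotransferase gene, had a log2 fold change of 4.93 (SE 1.12, adjusted p = 0.103, edgeR). It passed without WT male 1 (5.41, adjusted p = 0.0220, edgeR) but not without IDH2 KO female 3 (4.75, adjusted p = 0.281, edgeR). *Ces2a*, a carboxylesterase gene, had one of −1.10 (SE 0.23, adjusted p = 0.0677, edgeR) and passed without IDH2 KO female 3 (−1.05, adjusted p = 0.0411, edgeR). *Cyp3a11*, the main PXR target of mouse liver, was at 4710 CPM in WT and 3384 CPM in IDH2 KO mice (log2 fold change −0.41, SE 0.25).

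Among the targets of LXR, which are read here although both LXR genes had no read, 8 were tested and 0 passed, with *Lpl* and *Scd1* lower at an unadjusted p under 0.05 (3.24% of all genes) and a median of −0.42. Of 6 tested FXR and LRH-1 targets 0 passed, and 5 were below 0. Of 16 HNF4α targets 0 passed and 14 were below 0 (50.5% of all genes were), with a median of −0.16, and *Serpina1a* (−1.73) and *Apoa2* (0.96) had an unadjusted p under 0.05 (6.72% of all genes). The 8 tested hepatocyte markers were all below 0, with a median of −0.24. They are not a separate set, since *Ttr*, *Apoa1*, *Apob* and *Tat* are in both lists. The part of hepatocyte content in these values was not tested. Of 10 glucocorticoid receptor targets 1 passed (against 0.381% of all genes), *Dusp1*, which is also among the immediate early genes, at 1.99 (SE 0.36, adjusted p = 0.0223, edgeR), and it did not pass without IDH2 KO female 3 (adjusted p = 0.0792, edgeR) or without WT male 1 (adjusted p = 0.0517, edgeR). Of 14 tested genes of ligand supply and hormone handling 0 passed, and *Cyp27a1*, an oxysterol-producing enzyme, was lower at an unadjusted p under 0.05 (−0.52, adjusted p = 0.605, edgeR).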

How the data were processed

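Total liver RNA was isolated with the RNeasy Plus Mini Kit and libraries were made with an Illumina TruSeq RNA kit. Raw read counts by gene name were deposited by the authors, together with a shorter table holding some of the rows. Of the pipeline, the submitters' processing notes state FastQC and GRCm38.p5 alone, and which aligner and counter were run is not given in the sources used here. In the study, log2 RPM values were compared by an unequal-variance test without a sex term.

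The 39 members, the companion lists and the tests were chosen with earlier results of these data known. Counts were fitted in edgeR 4.0.16 (R 4.3.3) by the quasi-likelihood test with robust estimation, TMM scaling, filterByExpr (minimum count 10, minimum total 15) and terms for sex and genotype, with Benjamini-Hochberg adjustment over all genes at 0.05. Contrasts by sex came from a fit with 1 mean for each of the 4 groups. CPM are counts relative to TMM-scaled library sizes. Permutation tests used log2 of CPM plus 0.5 over the 350 assignments within sex. Values in every library are given for members past the filter with an unadjusted p under 0.05 for genotype or sex. They are also given for *Rxra*, *Rara* and *Ppara*, which the paper's text names, and for *Thra*, since the paper names TR. The 3 further members of the highest level per kilobase were included too. *Pparg*, *Vdr* and *Hnf4g* were added after their values were seen. Alternatives were other size factors, no filter, DESeq2 1.42.0, limma 3.58.1 on log2 RPM, the study's own test, a replicate block and leaving out each library in turn. The edgeR fit was tested on simulated counts. Coordinates and transcripts are those of GENCODE M21. All 12 libraries were used, since every pair within a group of genotype and sex differed by more than sampling noise. Some genes of the companion lists are not reported here.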

Additional observations from a re-analysis of the deposited data

Results flagged for a closer look

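Groups of 5 or 7 libraries were searched for a single library far from the rest, in the 14 tested receptor genes (28 groups) and in *Vdr* and *Hnf4g*, which were added because they stood out in WT male 1. Chance alone flags about 1 in 20 groups, and 4 of the 28 were found here besides the added genes. *Vdr* was at 25.1 CPM in WT male 1, against 0.0514 CPM in the next WT library, *Hnf4g* was at 1.24 CPM against 0 CPM, and *Ppard* was at 12.2 CPM against 6.53 CPM. That library also held 5494 reads of the intestinal genes, and their part in the level of *Ppard* was not tested. *Thra* was at 4.63 CPM (115 reads) in WT male 2, below the 9.70 CPM of the next WT library. *Rora* was at 0 CPM in IDH2 KO female 3, where the next IDH2 KO library had 0.715 CPM. *Rxrg* was at 0.569 CPM in IDH2 KO male 2, where the next IDH2 KO library had 0.208 CPM, a difference that rests on 11 reads.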

How the results depend on the processing

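No receptor gene was called for genotype in edgeR, DESeq2, limma or the other alternatives run, except that 1, *Vdr*, was called without the filter on low counts, with all but 1 of its reads from WT male 1. The number of all genes called between IDH2 KO and WT was 29. It was 205 without the filter, 63 with DESeq2, 1 with the test stated by the study and 19 (without IDH2 KO female 1) to 33 with a library left out. The count of 1 is at an adjusted p under 0.05 over 8729 genes, of which 397 had an unadjusted p under 0.05 in that unequal-variance test. The paper's own rule was a p under 0.05 with a fold change above 2, on fewer genes. Its number of genes is therefore not comparable with this count. Between the sexes 151 became 457 without the filter, 336 with DESeq2, and 80 (without IDH2 KO male 2) to 328 (without IDH2 KO female 3). In females 14 became 84 without the filter and 8 to 17 with a library left out, in males 8 became 151 and 2 to 26, and for the difference between the sexes 0 became 48 and 0 to 2. The cause was not tested.

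The sign of the genotype fold change was kept in all alternatives by 8 of 14 receptors (*Rxra*, *Rara*, *Thra*, *Nr1h5*, *Nr1i3*, *Rora*, *Esr1* and *Nr5a2*). With a library left out, the log2 fold change ran from −0.45 to 0.025 for *Ppara*, −0.099 to 0.43 for *Ppard*, −0.083 to 0.91 for *Pparg*, −0.0060 to 0.29 for *Nr1i2* and −0.22 to 0.46 for *Nr4a2*. The difference of males from females ran from −0.66 to 0.00085 for *Rara*, −0.047 to 0.30 for *Ppara*, −0.48 to 0.19 for *Pparg*, −0.047 to 0.41 for *Nr1h5* and −0.34 to 0.36 for *Nr1i3*. It also turned with other scaling, to 0.013 for *Pparg* with library sizes free of mitochondrial transcripts. For *Nr1i2* it turned to 0.12 without scaling factors, to 0.12 free of mitochondrial transcripts, and to 0.077 in limma with either 1 or 0.5 RPM added. For *Nr1i3* it turned to 0.29 without scaling factors, 0.14 without the 10 most abundant genes, 0.32 free of mitochondrial transcripts, and 0.28 and 0.29 in limma with 1 and 0.5 RPM added.

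Replicate numbers are shared between the genotypes, and same-numbered libraries did not deviate together from their group means (correlations of −0.15 to 0.067 over 5 pairs). The groups hold 2 to 4 libraries, and the deviations of the 2 IDH2 KO males are mirror images of each other. The correlations therefore cannot show whether same-numbered mice shared a litter or a batch. Of the 5 IDH2 KO libraries 1 correlated best with the WT library of its own number. With a replicate block 10 genes were called, the receptors had 0 calls, and *Rxrg* (0.12) and *Ppard* (−0.019) turned.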
